A study of Homo sapiens with 16 samples.

Results

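HCT116 cells, an established human colon cancer line of epithelial origin, were transfected with a small interfering RNA (siRNA) against G9a and compared with their own control cells by RNA sequencing. The libraries were chosen by their labels alone. They comprise 2 libraries of siRNA-treated cells and 2 libraries labelled as the control for the siRNA, each sequenced in 2 runs, so 8 of the 16 samples of the series. Per the labels' protocols the siRNA was used at 10 nM with the transfection reagent Lipofectamine RNAiMAX, and the cells were kept for 72 h. The sources used here do not say how the control cells were treated. The other 8 samples are 2 libraries of HCT116 cells given BIX 01294, a small-molecule inhibitor of G9a, at 0.5 µM for 72 h and 2 libraries of the inhibitor's own control. They were used to estimate the spread between libraries and for comparison. The 2 runs of a library were averaged and the library was the replicate, so n = 2 per group. The labels speak of biological replicates without naming separate cultures. The p-values therefore reflect the variation among these libraries only, and that variation may be technical.

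G9a, encoded by EHMT2, is a methyltransferase that adds methyl groups to lysine 9 of histone H3 (H3K9) in gene-rich chromatin, a mark that is bound by repressive reader proteins. It works as a heterodimer with its close relative GLP, encoded by EHMT1, and loss of either subunit is known to destabilise the other protein. A siRNA acts on the messenger RNA, whereas BIX 01294 acts on the enzyme, so only the former is expected to lower the EHMT2 transcript directly.

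Values are FPKM, fragments per kilobase of transcript relative to the library's mapped total, divided by 1 scaling factor per library. Depth implied by the deposited confidence bounds was 2023000 to 6937000 fragments per run, lowest in siRNA control library 2 and highest in siRNA control library 1. Of the summed FPKM of a run, the 6 most abundant RNAs took 54.03% to 55.76% in the siRNA runs and 48.55% to 50.3% in the siRNA control runs. This difference in composition moves with the groups, and its part in the results was not tested. Library profiles correlated across genes at r = 0.9917 between the siRNA control libraries and 0.9925 between the siRNA libraries, and between 0.9849 and 0.9923 across those groups. The inhibitor control libraries stood apart, with r between 0.9566 and 0.9735 to the other 6. Genes are not independent replicates, and these correlations are a description. Of 34 epithelial genes, 28 reached 1 FPKM in at least 1 library, and their summed level was 873.5 to 889.4 in the 4 siRNA and siRNA control libraries. Fibroblast markers summed to 1.993 to 2.947 with 3 of 12 at 0 in those 4 libraries, LUM and FAP among them. Immune cell markers summed to 9.273 to 13.53, mostly CD68, with 3 of 10 at 0, CD3D and MS4A1 among them. Markers of mature colonocytes and goblet cells summed to 15.62 to 23.99, nearly all of it CA2, with 5 of 12 at 0.

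EHMT2 (ENSG00000204371, chromosome 6, 31847536 to 31865464 in hg19, minus strand) was measured at 4.68 and 4.54 FPKM in the siRNA libraries and at 15.9 and 17.8 in their controls. Both siRNA libraries therefore lay far below both controls, and below all 4 libraries of the inhibitor arm, where EHMT2 was 19.7 and 18.9 with inhibitor and 24.7 and 21.0 in its control. The mean fell from 16.8 ± 1.30 to 4.61 ± 0.0996 FPKM (SD, n = 2), which left 27.4% of the control level. On the log2(FPKM + 1) scale the change was -1.67 ± 0.09 (SE, adjusted p = 0.000268), and the gene was called in all 16 alternative analyses. The implied number of fragments on EHMT2 was 146 and 76 in the siRNA libraries and 1281 and 348 in the controls. EHMT1, the partner subunit, was 9.08 and 10.2 FPKM with siRNA against 12.2 and 15.8 in the controls. The groups did not overlap, but the change of -0.49 ± 0.12 did not pass the test (adjusted p = 0.0677).

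**Figure D1:**
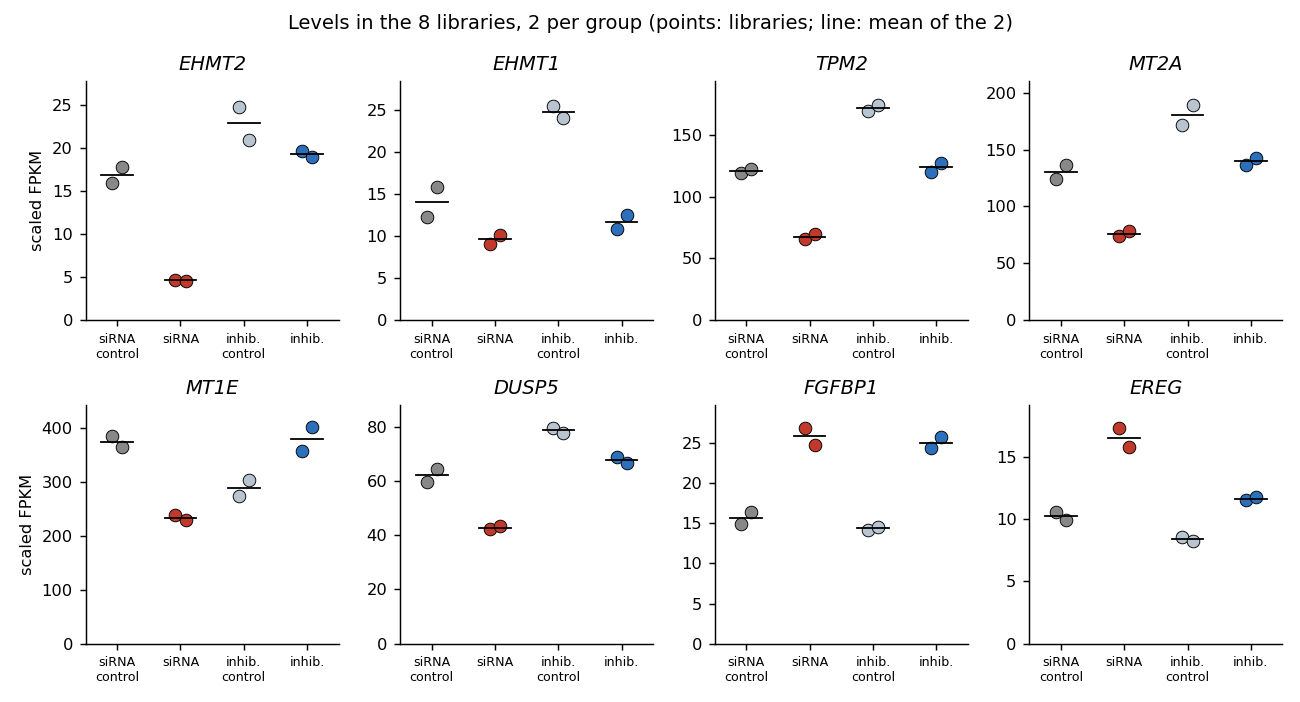
Scaled FPKM (y axis, from 0) of 8 genes in the 4 groups, 2 libraries per group; points are libraries and lines are the mean of each pair. EHMT2 sits at 4.68 and 4.54 in the siRNA libraries and at 15.9 or above in the other 6 libraries, while FGFBP1 and EREG are higher with siRNA than in the siRNA controls.

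Across the transcriptome few genes passed the test with 2 libraries per group, and most of their changes were small. A gene that did not pass is not thereby unchanged. Of 12846 genes tested, 273 passed a Benjamini-Hochberg threshold of 0.05 in a limma fit over all 8 libraries, and these are termed called genes. They were 2.13% of the genes tested. Among them 103 genes rose (0.802%) and 170 fell (1.32%). On the log2(FPKM + 1) scale the median change was 0.45 for those that rose and -0.42 for those that fell. On that scale 6 of the former and 5 of the latter changed by at least 1 unit. The scale understates changes of low genes. PLEKHA4, for example, rose 2.28-fold in mean FPKM at a fitted change of 0.82. The median over all genes was -0.01. For scale, the median absolute difference between the libraries of a group was 0.107 log2 units with siRNA and 0.113 in the siRNA controls. In all, both siRNA libraries lay above both controls for 23.8% of genes and below both for 25.9%, and 20.8% had an unadjusted p under 0.05. Changes lay above 0 in 6117 genes and below 0 in 6729. All 273 called genes had groups that did not overlap, so this is no separate result for a called gene described below. Of those called higher, 86 of 103 lay above all 6 other libraries, and of those called lower, 154 of 170 lay below them, where 12.2% and 12.6% of all genes did.

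The number of calls varied widely between analyses. Without siRNA control library 2 there were 8 calls, of which 7 were among the 273. These 7 are EHMT2, TPM2, MT2A, FGFBP1, ANKRD10-IT1, SNHG9 and the antisense transcript RP11-386G11.10. Without siRNA library 1 there were 26 calls (21 of them shared), without siRNA library 2 there were 66 (53 shared), and without siRNA control library 1 there were 424 (184 shared). A fit to the 4 siRNA and siRNA control libraries alone gave 7 calls. Leaving out the inhibitor control libraries, an alternative added after seeing the data, gave 132. Every call other than those 7 genes was thus lost without siRNA control library 2 (adjusted p up to 0.278), and all but 21 without siRNA library 1 (up to 0.192), which holds for each called gene described below. EHMT2 and TPM2 were called in all 16 alternatives, MT2A in 15, and ANKRD10-IT1, FGFBP1, ERRFI1 and MT1E in 14. SNHG9 was called in 8, and its implied fragments, given below, did not fall with its FPKM. The share of calls that were higher was 37.7%, against 14.9% with FPKM as deposited and 49.1% after quantile normalization.

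**Figure D2:**
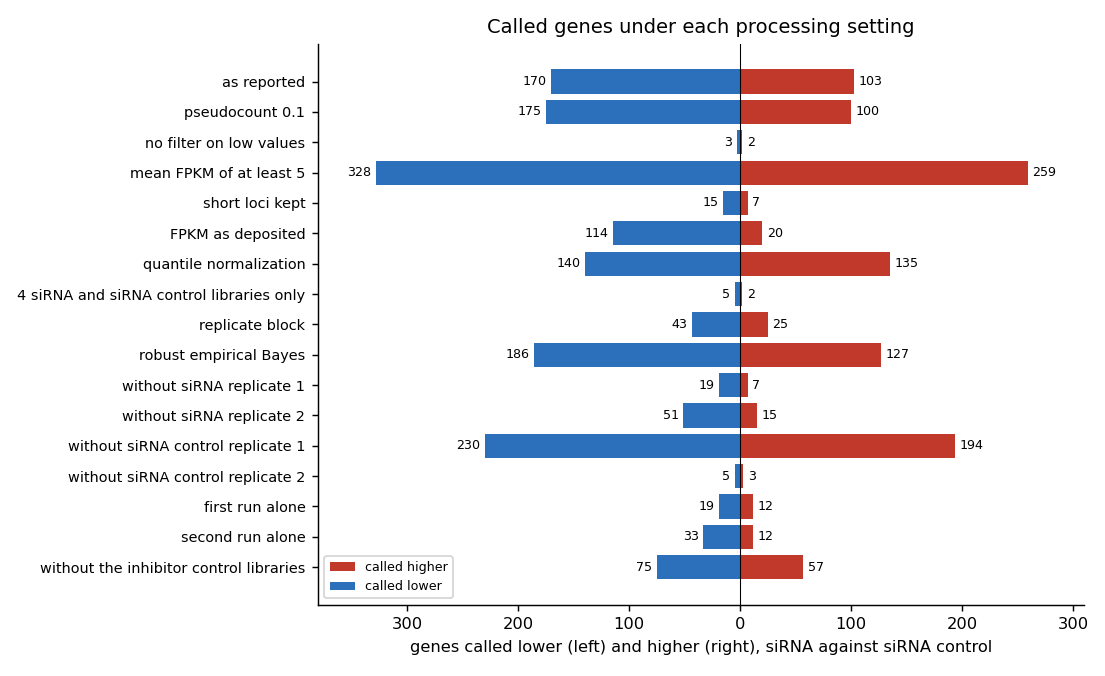
Number of genes called higher (right) and lower (left) with siRNA under the reported analysis and each of the 16 alternatives. Counts run from 2 higher and 3 lower with no filter on low values to 259 higher and 328 lower with a mean FPKM of at least 5.

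**Figure D3:**
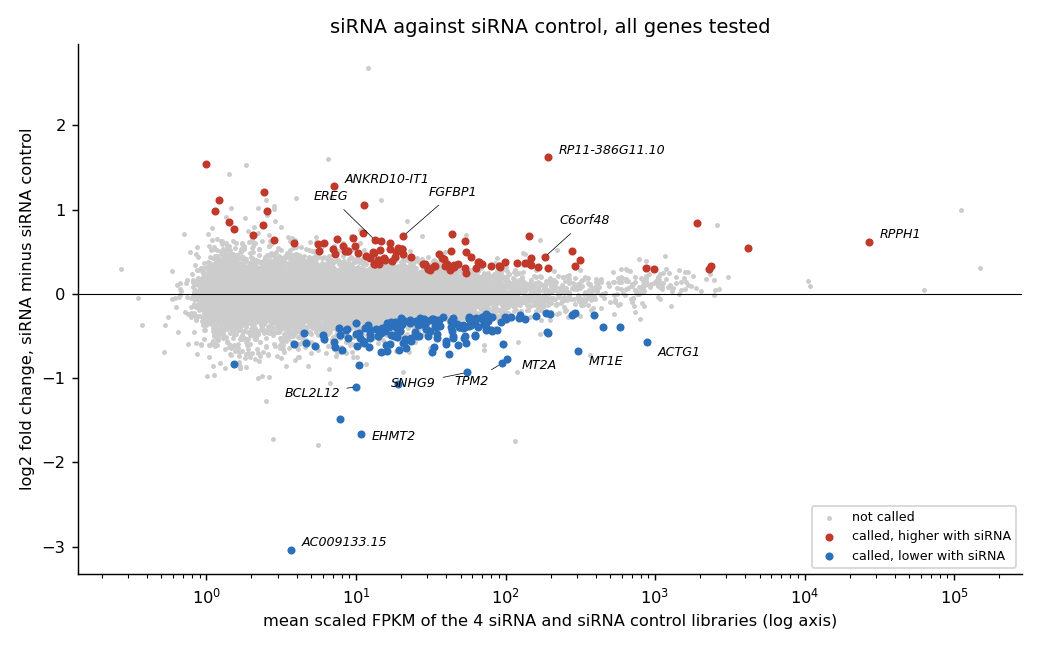
Log2 fold change, siRNA minus siRNA control (y axis), against the mean scaled FPKM of the 4 libraries (x axis, log) for the 12846 genes tested; coloured points are the 103 genes called higher and the 170 called lower. EHMT2 is the protein-coding gene with the lowest value among the called genes. Most called genes lie within 1 unit of 0 on the log2(FPKM + 1) scale.

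The makeup of the 2 sets of called genes is given as a description, without a test. Protein-coding genes were 79.6% of those that rose, 91.8% of those that fell and 85.0% of all genes tested, and long noncoding RNAs were 14.6%, 4.7% and 6.7%. The longest transcript had a median GC content of 43.0% among the genes that rose and 51.6% among those that fell, beside 48.0% over all. Its median length was 2152 and 2931 bases against 3338. Base composition and length thus moved with the direction of change, and their part in it was not tested. The sources used here do not say whether reads were assigned by strand, and 26.2% of the genes that rose and 35.9% of those that fell overlap another tested gene, beside 4497 of the 12846 tested.

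Metallothioneins, small cysteine-rich proteins that bind zinc and copper, were among the genes whose call held most often. MT2A was 73.9 and 77.9 FPKM with siRNA and 124 and 136 in the controls, a change of -0.77 ± 0.07 (adjusted p = 0.00351). MT1E was 237.8 and 229.4 against 383.6 and 364.1 (-0.68 ± 0.07, adjusted p = 0.00655). MT1X was 55.9 and 47.9 against 72.3 and 73.5 (-0.49 ± 0.08, adjusted p = 0.0282). In each of these genes both siRNA libraries lay below both controls by more than the gap within either group. Of the 12 measured members of the list of metallothioneins and zinc handling genes, these 3 fell and none rose, where 1.32% of all genes fell, and the list's median was -0.23. MT1F, at 3.22 and 2.62 against 2.92 and 5.68, overlapped its controls, and so did MTF1, the zinc-sensing transcription factor that drives metallothionein genes, at 3.07 and 2.72 against 2.82 and 2.44. SLC30A1, a zinc exporter that MTF1 also drives, was 4.88 and 5.07 against 6.16 and 6.29 and did not pass the test (-0.28 ± 0.09, adjusted p = 0.131). Without siRNA control library 2 only MT2A kept its call, MT1E missed it at an adjusted p of 0.0562 and MT1X at 0.193; without siRNA library 2 MT1X missed it at 0.087. Metallothionein genes are near-identical in sequence, so reads may be shared among them.

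The promoters of the 2 called metallothionein genes present in the RefSeq promoter table are shown because these genes fell together and are textbook targets of one factor. Each run is the 250 bases before the annotated start, 5′ to 3′ on the gene's strand, in GRCh38.p14. Capitals mark the core of the metal response element, searched as TGCACNC or TGCGCNC on both strands.

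MT2A (chr16:56608334-56608583, plus strand): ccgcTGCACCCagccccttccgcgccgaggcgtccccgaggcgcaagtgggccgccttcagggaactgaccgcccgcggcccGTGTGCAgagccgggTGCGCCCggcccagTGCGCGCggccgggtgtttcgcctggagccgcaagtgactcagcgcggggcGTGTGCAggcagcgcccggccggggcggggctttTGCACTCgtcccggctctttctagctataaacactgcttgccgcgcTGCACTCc

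MT1X (chr16:56682220-56682469, plus strand): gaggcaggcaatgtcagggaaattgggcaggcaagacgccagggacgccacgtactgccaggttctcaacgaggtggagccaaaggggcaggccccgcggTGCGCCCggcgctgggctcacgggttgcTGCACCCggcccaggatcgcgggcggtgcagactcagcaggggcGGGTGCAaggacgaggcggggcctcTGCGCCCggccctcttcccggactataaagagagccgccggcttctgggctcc

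The MT2A window holds 7 matches and the MT1X window holds 4. Of 35116 promoter windows of the same length, 24.8% hold at least 1 match and 0.37% hold at least 4. The window of SLC30A1 holds 1. A match is a description of the sequence and no measure of binding.

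Genes of the actin filament were another list with several decreases. TPM2, the beta chain of tropomyosin that lies along actin filaments, was 65.4 and 70.0 FPKM with siRNA and 119.2 and 122.2 in the controls, which is 56.1% of the control mean (-0.83 ± 0.05, adjusted p = 0.000504). ACTG1, cytoplasmic gamma actin and the most abundant gene that fell, was 660.5 and 763.9 against 1006 and 1105 (-0.57 ± 0.08, adjusted p = 0.0223). In both genes the siRNA libraries lay below all 6 other libraries. MYL9, the regulatory light chain of myosin II, was 8.35 and 8.80 against 12.4 and 13.2 (-0.53 ± 0.08). MYH9, the heavy chain of non-muscle myosin IIA, was 19.2 and 22.8 against 29.93 and 29.97 (-0.50 ± 0.09). ACTN4 and FLNA, which crosslink filaments, fell by 0.43 and 0.36 on the log2 scale. TMSB10, which binds actin monomers, rose instead, from 2099 and 2023 to 2528 and 2521 (0.29 ± 0.05, adjusted p = 0.0278), a change that was 0 after quantile normalization. Of 30 measured members of the list, 1 rose and 6 fell, with 21 below 0 and a median of -0.11, beside 2.13% of all genes called. The other tropomyosins did not pass the test: TPM1 was 13.5 and 15.1 against 13.97 and 11.25, and TPM4 113.1 and 111.2 against 117.9 and 109.3. Without siRNA control library 2, and likewise without siRNA library 1, only TPM2 of the 7 kept its call, the others reaching adjusted p-values of up to 0.246 and 0.172. Actin genes have many processed copies in the genome, which makes the level of ACTG1 uncertain.

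Several of these genes are textbook targets of serum response factor, encoded by SRF, which binds the CArG box. SRF itself was 6.94 and 8.42 FPKM against 9.89 and 12.9 (-0.51 ± 0.13, adjusted p = 0.0703), so it did not pass the test. Promoters of 2 of the genes that fell are shown for the CArG box, in capitals, in the same format.

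ACTG1 (chr17:81512800-81513049, minus strand): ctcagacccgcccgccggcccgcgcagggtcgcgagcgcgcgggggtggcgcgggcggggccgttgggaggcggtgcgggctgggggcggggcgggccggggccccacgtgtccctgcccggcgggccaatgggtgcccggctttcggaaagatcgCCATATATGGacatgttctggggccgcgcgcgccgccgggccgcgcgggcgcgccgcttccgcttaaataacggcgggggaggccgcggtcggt

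FLNA (chrX:154374635-154374884, minus strand): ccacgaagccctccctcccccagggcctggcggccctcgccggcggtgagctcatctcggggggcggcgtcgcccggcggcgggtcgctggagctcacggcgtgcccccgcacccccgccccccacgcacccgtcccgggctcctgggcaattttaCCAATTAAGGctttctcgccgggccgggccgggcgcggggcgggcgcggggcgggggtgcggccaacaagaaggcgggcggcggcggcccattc

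Each of these windows holds 1 CArG box on the strand shown, as do 1.16% of the 35116 windows when both strands are searched. Of the 5 genes of the list that fell and have an entry, these 2 hold a box and TPM2, ACTN4 and MYH9 hold 0. Of the 20 with an entry that did not pass the test, TPM4, CNN2 and ACTN1 hold 1 and the others hold 0.

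Growth factor signalling genes changed in both directions. FGFBP1, a secreted carrier that releases fibroblast growth factors from the matrix, was 26.9 and 24.8 FPKM with siRNA and 15.0 and 16.4 in the controls, a 1.65-fold rise (0.69 ± 0.07 on the log2 scale, adjusted p = 0.00655). EREG, a ligand of the EGF receptor, was 17.3 and 15.8 against 10.6 and 9.94 (0.64 ± 0.08, adjusted p = 0.0144). Both were higher in each siRNA library than in each siRNA control library. DUSP5, a nuclear phosphatase of ERK and part of its feedback, fell from 59.7 and 64.5 to 42.2 and 43.4 (-0.53 ± 0.06, adjusted p = 0.00655). MYC, a transcription factor downstream of this and other pathways, fell from 132.9 and 136.3 to 107.4 and 112.3 (-0.29 ± 0.05, adjusted p = 0.0334). The list of growth factor ligands, receptors and MAPK output had 31 measured members. Of these 2 rose (0.802% of all genes did), 2 fell (1.32% did) and 27 did not pass the test. Among the latter, EGFR was 4.38 and 4.47 against 4.21 and 4.46, and DUSP6, another ERK phosphatase, 44.4 and 44.2 against 36.96 and 42.58. Outside the list, ERRFI1, a feedback inhibitor of the EGF receptor, fell from 62.9 and 62.4 to 43.1 and 45.1 (-0.50 ± 0.05, adjusted p = 0.00655), and NRG1, a ligand of other receptors of the family, rose from 10.1 and 9.35 to 14.1 and 13.1 (0.45 ± 0.09, adjusted p = 0.0415). These 2 genes were named after their values were seen. Of the list's 4 called genes only FGFBP1 kept its call without siRNA control library 2, DUSP5 missing it at an adjusted p of 0.0637, EREG at 0.12 and MYC at 0.203. Without siRNA library 1, EREG missed it at 0.0996 and MYC at 0.149, and without siRNA library 2 MYC missed it at 0.0759.

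In the cell cycle lists all calls were decreases. Of 46 G1/S and replication genes 3 fell and none rose, with a median of 0.00. Of 40 G2/M genes 1 fell and none rose, where 1.32% of all genes fell. The cyclin gene CCND1 was 71.0 and 66.6 FPKM against 87.0 and 100.7 in the controls (-0.44 ± 0.08), and the nucleotide synthesis genes RRM2 and TK1 fell by 0.39 and 0.37 on the log2 scale. MYBL2, a transcription factor of the cell cycle, was 10.9 and 13.5 against 18.3 and 22.1 (-0.68 ± 0.12). None of these 4 genes kept its call without siRNA control library 2 (adjusted p up to 0.224) or without siRNA library 1 (up to 0.163). Without siRNA library 2 only MYBL2 kept it, and without siRNA control library 1 TK1 missed it at 0.0575. KIAA0101, which encodes a PCNA-binding factor, went the other way, with 69.1 and 61.3 against 44.0 and 39.6 (0.63 ± 0.07, adjusted p = 0.009).

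Of the 15 measured genes for H3K9 methyltransferases and their partners, EHMT2 alone was called, where 2.13% of all genes were. SETDB1, SUV39H1 and SUV39H2, which also methylate H3K9, had log2 changes of -0.08, -0.14 and 0.00. Among 15 genes listed as readers of the mark and their partners, 2 fell and none rose, with a median of -0.13. Of all genes, 1.32% fell and 0.802% rose. BANF1 is a DNA-binding protein that links chromatin to the nuclear envelope, and it is counted again in the nuclear lamina list. It was 6.50 and 7.95 FPKM against 12.5 and 14.9 (-0.84 ± 0.11, adjusted p = 0.0151). UHRF1, which binds methylated H3K9 and directs maintenance DNA methylation, was 13.98 and 16.2 against 20.8 and 22.2 (-0.48 ± 0.09, adjusted p = 0.0414). Without siRNA control library 2 these 2 calls were lost at adjusted p-values of 0.12 and 0.241, and without siRNA library 1 at 0.0765 and 0.163. The HP1 genes CBX1, CBX3 and CBX5 were not called, with log2 changes of -0.11, 0.06 and -0.22. None of the 11 H3K9 demethylases was called, and their changes ran from -0.24 to 0.18.

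Of 13 measured genes next to EHMT2 in the class III region of the major histocompatibility complex, 1 was called, where 2.13% of all genes were. C6orf48 (chromosome 6, 31802385 to 31807541 in hg19), a host gene of small nucleolar RNAs, was 219.4 and 202.2 FPKM with siRNA against 160.8 and 150.0 in the controls (0.44 ± 0.06, adjusted p = 0.0173). It lay above all 6 other libraries, and its call was lost without siRNA control library 2 (adjusted p = 0.144) and without siRNA library 1 (0.104). NEU1, which lies between C6orf48 and EHMT2, was 16.7 and 14.7 against 15.9 and 14.8.

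Genes of nucleolar ribosome assembly leaned lower. Of 56 measured members of a list chosen after values were seen, 11 fell, none rose and 42 lay below 0, with a median of -0.11, where 1.32% of all genes fell and 6729 of 12846 lay below 0. NCL, the major nucleolar protein nucleolin, was 66.1 and 87.9 FPKM against 111.3 and 119.3 (-0.59 ± 0.11, from -0.79 to -0.39 over the alternatives). NOLC1, a chaperone of small nucleolar ribonucleoproteins, was 50.2 and 52.4 against 68.2 and 64.8 (-0.37 ± 0.06). NOP56, a core protein of box C/D ribonucleoproteins, fell by 0.25 on the log2 scale. None of the 11 kept its call without siRNA control library 2 or without siRNA library 1, and 3 did without the inhibitor control libraries. Of 12 RNA polymerase II subunits, also listed after values were seen, POLR2F, POLR2E and POLR2L fell by 0.44, 0.32 and 0.50, all 3 being shared with the other nuclear polymerases, and their calls too were lost without either of those libraries. In the list of 48 spliceosome genes 1 rose, where 0.802% of all genes did, and 4 fell, with 35 below 0 and a median of -0.10. SF3A1, a U2 small nuclear ribonucleoprotein subunit, was 10.07 and 12.04 against 17.0 and 19.8 (-0.69 ± 0.10, adjusted p = 0.0222), and none of the 5 kept its call without siRNA control library 2.

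Cytosolic ribosomal protein genes leaned higher, with 61 of 82 above 0, where 6117 of 12846 genes were, and a median of 0.11, though after quantile normalization the median was -0.01. RPL37, RPL10, RPS18 and RPS27L rose and RPL8 fell, where 0.802% of all genes rose and 1.32% fell. RPL37 was 976.9 and 942.8 FPKM with siRNA against 792.3 and 753.7 (0.31 ± 0.05, adjusted p = 0.0266). RPL8 was 486.5 and 518.0 against 642.1 and 679.4 (-0.40 ± 0.05, adjusted p = 0.0207). None of the 5 kept its call without siRNA control library 2 or without siRNA library 1, and ribosomal protein genes have many processed copies. Among 17 listed host genes of small nucleolar RNAs 2 rose and 1 fell, beside the same shares of all genes, and 14 lay above 0. C6orf48, another host gene that rose, is not in this list and was counted with the EHMT2 neighbours. SNHG3 was 5069 and 4789 against 3344 and 3444, SNHG7 was 2430 and 2410 against 1585 and 1147, and SNHG9 was 39.0 and 35.01 against 90.5 and 56.4. These spliced RNAs carry small RNAs in their introns, and RNA of the latter may enter the values. After quantile normalization the change of SNHG3 was 0, and that of SNHG9 ran from -1.27 to -0.59 over the alternatives. The implied fragments on SNHG9 were 131 and 67 with siRNA and 46 and 11 in the siRNA controls, opposite in direction to its FPKM. Its fall is therefore uncertain. RPPH1, the RNA subunit of RNase P and the most abundant called gene, was 33690 and 31680 against 21800 and 20820 (0.62 ± 0.10, adjusted p = 0.0273). Its change too was 0 after quantile normalization, and it overlaps PARP2.

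Zinc finger genes of chromosome 19, a clustered family rich in H3K9 methylation in many cell types, held few calls. Of 111 measured members 3 fell and none rose, where 1.32% of all genes fell. Both siRNA libraries lay below both controls in 48 members and above both in 10, where 25.9% and 23.8% of all genes did. In all 79 lay below 0, where 6729 of 12846 genes did, and the median was -0.10. ZNF776 was 3.57 and 3.49 FPKM against 5.68 and 5.88 (-0.58 ± 0.09, adjusted p = 0.0266), and ZNF581 and ZNF551 fell by 0.53 and 0.42. None of the 3 kept its call without siRNA control library 2, siRNA library 1 or siRNA library 2, with adjusted p-values of up to 0.261, 0.172 and 0.167. Of 35 germline and cancer-testis genes only 3 passed the filter on level and none was called. MAGEA12, a cancer-testis gene, was 67.98 and 62.59 against 59.9 and 54.2 (0.19 ± 0.07, adjusted p = 0.187). Of 18 imprinted genes 1 rose, MEST, from 50.3 and 49.2 to 58.9 and 59.2, where 0.802% of all genes rose. Of 17 HOX genes none was called.

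Other lists, drawn from pathways in which G9a has been studied, held no called gene. None of 24 interferon-stimulated and RNA-sensing genes, 29 p53 targets, 24 genes of the serine, glycine and ATF4 response, 32 autophagy and lysosome genes or 19 YAP-TEAD targets was called, where 2.13% of all genes were. At that share lists of this size hold few calls or none, so the absence of calls does not show these pathways to be unchanged. The medians of these lists were -0.02, 0.04, -0.02, 0.00 and -0.14, in that order. An unadjusted p under 0.05 was seen in 8 of 24, 8 of 29, 8 of 24, 12 of 32 and 2 of 19 members, where 20.8% of all genes had one. The members nearest to the threshold included MTHFD2, an enzyme of mitochondrial folate metabolism, at 191.7 and 182.8 FPKM against 217.2 and 217.7 (adjusted p = 0.0521), and BECN1, an initiator of autophagy, at 12.9 and 15.6 against 19.2 and 21.4 (adjusted p = 0.0544). FDXR, of the p53 list, was 11.7 and 12.4 against 8.41 and 9.64 (adjusted p = 0.0574). ISG20, an interferon-induced exonuclease, was 3.90 and 2.96 against 1.71 and 2.02 (adjusted p = 0.062). Both siRNA libraries lay above both controls in 12 of the 29 p53 targets and below both in 6. Of all genes, 23.8% lay above both and 25.9% below both. Among 15 genes of the RNA interference machinery XPO5, the exporter of precursor microRNAs, fell from 44.2 and 38.9 to 32.5 and 30.9 (-0.38 ± 0.07, adjusted p = 0.0427). Leaving out any single library of the 4 ended this call. The implied fragments on XPO5 went the other way, 824 and 378 with siRNA against 370 and 108 in the siRNA controls. XPO5 also overlaps POLR1C, so its fall is uncertain.

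**Figure D4:**
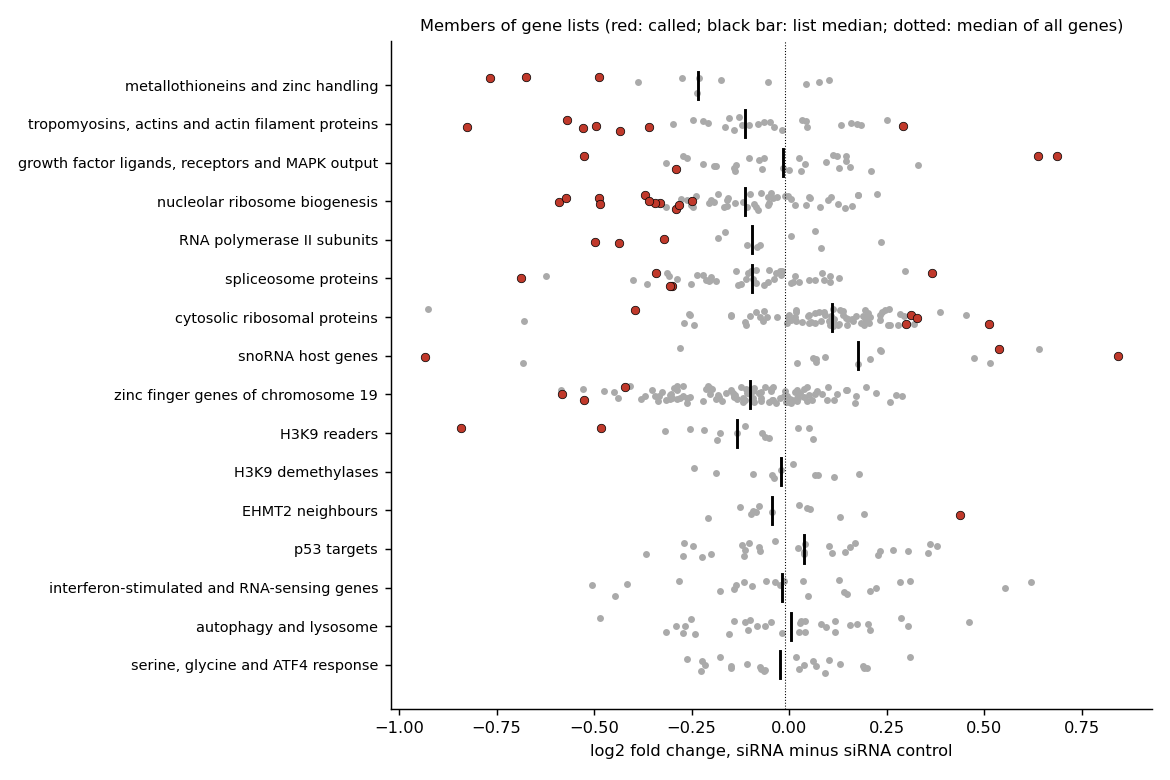
Log2 fold change, siRNA minus siRNA control (x axis), of every tested member of 16 gene lists (rows); red points are called genes, black bars are list medians and the dotted line is the median of all genes. The metallothionein list has the lowest median of those drawn, -0.23, and the rows of p53, interferon, autophagy and ATF4 genes hold no called gene.

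The counts of the remaining lists, here and in the next paragraph, stand beside 0.802% of all genes that rose and 1.32% that fell. Of 18 cytosolic chaperone genes none was called, although 15 lay below 0 and both siRNA libraries lay below both controls in 13, with a median of -0.13; 25.9% of all genes lay below both controls. AHSA1, a cochaperone of HSP90, was 159.5 and 161.2 FPKM against 185.5 and 181.3 (-0.19 ± 0.04, adjusted p = 0.0584). Of 77 mitochondrial ribosomal protein genes 1 rose and 3 fell, and MRPL15, the member whose call held most often, was 18.8 and 18.1 against 26.3 and 28.0 (-0.53 ± 0.06, adjusted p = 0.00869). Of 97 nuclear genes of the respiratory chain NDUFS3 and NDUFS6, subunits of complex I, fell by 0.39 and 0.34, the latter ranging from -0.55 to -0.18 over the alternatives, and none of the 11 mitochondrially encoded mRNAs was called. Of 36 proteasome genes 1 rose, PSMA2 (0.43 ± 0.08), and none of 35 aminoacyl-tRNA synthetase genes was called. Of 56 replication-dependent histone genes 1 pseudogene rose and HIST1H2BM and HIST1H4E fell by 0.27 and 0.29.

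Epithelial and mesenchymal genes held 1 call between them. Of 27 tested epithelial genes TJP1, a tight junction scaffold, fell from 11.14 and 11.41 to 8.45 and 8.87 FPKM (-0.35 ± 0.07, adjusted p = 0.0483), with a list median of 0.08, and none of 9 mesenchymal genes was called. Of 15 Wnt targets 2 fell, CCND1 and MYC. S100A11, a calcium-binding protein, was 44.0 and 44.4 against 34.0 and 35.6 (0.34 ± 0.05, adjusted p = 0.0276) and was the called member of 10 S100 genes. None of 11 genes of Polycomb repressive complex 2, which methylates another lysine of histone H3, was called, nor was any of 14 cohesin and CTCF genes. EZH2, the catalytic subunit of the former, was 12.6 and 15.3 against 17.3 and 18.6 (-0.35 ± 0.09, adjusted p = 0.0828), and SMC1A, a cohesin subunit, was 11.6 and 14.7 against 17.9 and 19.6 (-0.49 ± 0.11, adjusted p = 0.062). Of 27 genes of glycolysis and the pentose phosphate pathway 2 fell, of 33 genes of cholesterol and fatty acid synthesis 1 rose, and of 32 NRF2 targets and antioxidant genes 1 rose and 1 fell. Of 19 genes of the nuclear lamina and envelope 1 fell, BANF1.

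Among the 20 largest increases, 10 were protein-coding genes. ACSL5, which activates long-chain fatty acids, was 3.46 and 3.99 FPKM against 1.33 and 1.43 in the controls, a 2.7-fold rise (0.99 ± 0.14, adjusted p = 0.0222). PLEKHA4, a phosphoinositide-binding protein, was 3.38 and 3.26 against 1.48 and 1.43 (0.82 ± 0.12, adjusted p = 0.0222). SQRDL, which oxidises hydrogen sulfide in mitochondria, was 9.40 and 9.31 against 5.70 and 5.50 (0.65 ± 0.09). SEC61G, a subunit of the protein translocon of the endoplasmic reticulum, was 180.2 and 172.2 against 123.5 and 95.8 (0.69 ± 0.11), and SRP9, part of the signal recognition particle, rose by 0.35, while the chaperones HSP90B1 and CANX of the same compartment fell by 0.24 and 0.23. NMRK1, a kinase of the nicotinamide riboside route to NAD, was 3.01 and 2.50 against 1.501 and 1.139 (0.70 ± 0.15). Implied fragments in siRNA control library 2 were only 8 for ACSL5, 4 for PLEKHA4 and 7 for NMRK1, so the size of these rises is imprecise. TMEM14A and SH3TC2 rose by 0.71 and 0.64, the latter by 0.38 to 0.90 over the alternatives. The other 10 were noncoding RNAs and pseudogenes, led by RP11-386G11.10, antisense to the tubulin gene TUBA1B, at 278.4 and 296.7 against 125.8 and 68.4 (1.62 ± 0.22, adjusted p = 0.0174). Its change ran from 1.18 without siRNA control library 2 to 2.80 with the second run alone. The sense-intronic transcript ANKRD10-IT1, which lies in ANKRD10, was 9.65 and 11.4 against 4.22 and 3.33 (1.27 ± 0.12, adjusted p = 0.00655). Of the 20 genes, 3 kept their call without siRNA control library 2 and 3 without siRNA library 1.

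Among the 20 largest decreases, 14 were protein-coding genes, EHMT2, TPM2, MT2A, MT1E, BANF1, SF3A1 and MYBL2 among them. BCL2L12, an atypical member of the BCL2 family that overlaps IRF3, was 5.396 and 6.654 FPKM against 12.4 and 15.8 (-1.10 ± 0.17, adjusted p = 0.0253). PGD, an enzyme of the pentose phosphate pathway, was 21.0 and 28.0 against 37.4 and 42.4 (-0.69 ± 0.14, adjusted p = 0.0442). SLC29A1, a nucleoside transporter, was 13.4 and 16.5 against 22.9 and 25.4 (-0.66 ± 0.10, adjusted p = 0.0238). The siRNA libraries were the lower pair in each. MRFAP1, PLCD3, GATAD2A, a subunit of the NuRD complex, and TMED9, a cargo receptor of the early secretory pathway, fell by 0.71, 0.67, 0.64 and 0.63. The glucose transporter gene SLC2A1, outside the 20, fell by 0.53. The largest fitted decrease was that of AC009133.15, antisense to MAZ, which was 5.88 and 8.82 in the siRNA controls and listed at values near 0 in both siRNA libraries and both inhibitor controls. Such a value can be a failed split of reads between overlapping genes, and no fold is given. Of the 20 genes, 4 kept their call without siRNA control library 2 and 6 without siRNA library 1.

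The inhibitor and its control share no library with the siRNA comparison, but both comparisons come from 1 fit with a shared estimate of the spread. A gene with a small standard error is more readily called in both, so the shares that follow are not independent of the siRNA calls and are given as a description. Of the 103 genes that rose with siRNA, 72 (69.9%) were called higher and 7 lower with inhibitor, where 17.7% and 18.7% of all genes were. Of the 170 that fell, 116 (68.2%) were called lower and 9 higher. However, both inhibitor control libraries lay above the other 6 libraries in 117 (68.8%) of the genes that fell, beside 25.8% of all genes and 5.83% of those that rose, so in these genes the inhibitor arm fell from a level seen in its control libraries and in none of the others. NCL, for example, was 115.2 and 122.8 with inhibitor and 477.8 and 482.5 in the inhibitor controls, while BANF1 was 12.78 and 12.02 against 62.7 and 58.6. Both inhibitor-treated values are near those of the siRNA controls. The part of the inhibitor controls in these shares was not tested.

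The test of the difference between the 2 effects passed for 1520 genes (11.8%), for 20 (19.4%) of those that rose with siRNA and for 76 (44.7%) of those that fell. EHMT2 was among them, with a siRNA effect 1.44 ± 0.13 log2 units below the inhibitor effect of -0.23 (adjusted p = 0.000776). MT1E moved in opposite directions, each against its own control, by -0.68 with siRNA and 0.39 with inhibitor (adjusted p of the difference = 0.000878). In the inhibitor arm it was 355.8 and 401.0 against 273.3 and 302.7 FPKM. The inhibitor-treated values were near those of the siRNA controls, 383.6 and 364.1, and the inhibitor controls were lower. The part of the inhibitor controls in this difference was not tested. LSM4, a subunit of the U6-associated LSm ring that was named after its values were seen, fell from 220.4 and 227.3 to 165.1 and 158.8 with siRNA and rose by 0.28 with inhibitor (adjusted p of the difference = 0.000739). For ACSL5 and PLEKHA4, which rose with siRNA, the effects also differed (adjusted p = 0.0145 and 0.0132), the inhibitor effects being -0.05 and -0.07. Both genes had few implied fragments in siRNA control library 2. For FGFBP1 the effects were 0.69 and 0.76, and the difference of -0.07 ± 0.10 did not pass (adjusted p = 0.70). The actin genes ACTG1, ACTN4 and MYH9 fell more in the inhibitor comparison, and here too the inhibitor controls held the high values, 2452 and 2185 FPKM for ACTG1.

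**Figure D5:**
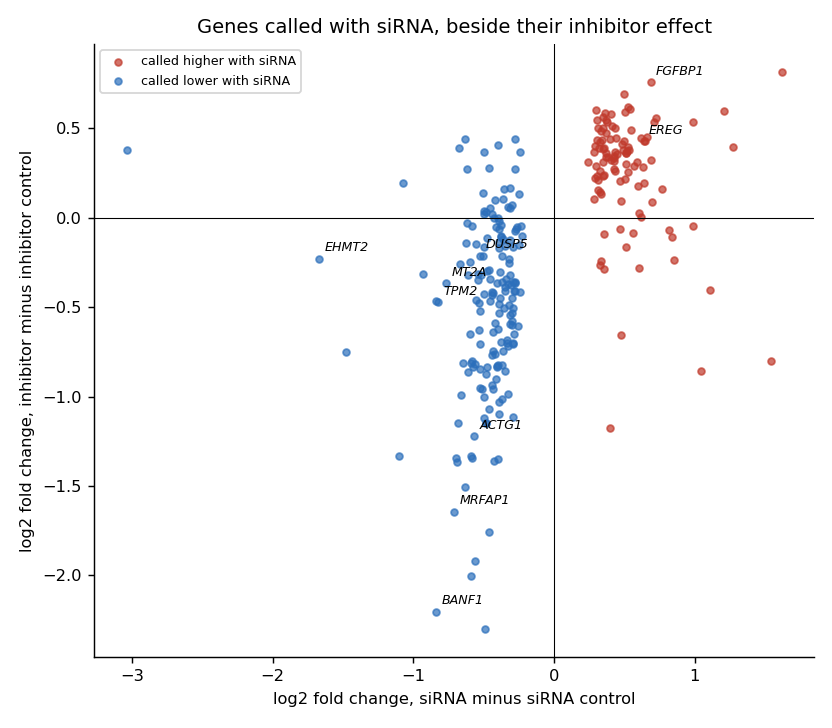
Each of the 273 called genes by its log2 fold change with siRNA (x axis) and with inhibitor (y axis), each against its own control; red points rose and blue points fell with siRNA. Most red points lie above 0 on the y axis and most blue points below it, with BANF1 at -2.20 and EHMT2 at -0.23 on the inhibitor axis.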

How the data were processed

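Total RNA of HCT116 cells was made into stranded libraries and sequenced, per the labels' protocols. The authors deposited gene-level FPKM from Cufflinks for each run, per the file headers. STAR 2.3.0e, SAMtools 0.1.19, Cufflinks and hg19 are named in the submitters' processing notes. The sources used here give neither the version and options of Cufflinks nor its annotation or use of strand. The files hold no counts, so depth was estimated from the deposited confidence bounds, read as counting error of 2 standard deviations, and no counting interval is given.

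Entries of 1 gene identifier were summed, the 2 runs of a library were averaged, and each library was divided by a median-of-ratios factor (0.878 to 1.01 in these 4 libraries). Tests covered genes that averaged at least 1 FPKM over 8 libraries and spanned at least 300 bases. MT-RNR2, which Cufflinks marked as too deep to estimate in all 16 runs, was left out. FPKM are relative to the library total, so abundant RNAs can shift the rest. limma 3.58.1 in R 4.3.3 was fitted to log2(FPKM + 1), a scale that understates changes of low genes, with a trended empirical Bayes spread over 4 groups in 1 model (4 residual and 5.04 prior degrees of freedom). Tests are two-sided with Benjamini-Hochberg adjustment over all genes. The procedure was tested on simulated data. There it recovered 61 of 100 genes changed by 0.5 log2 units and 96 of 100 changed by 1. It also called 9 unchanged genes. The simulation drew independent noise for each gene around a mean shared by all groups, without shifts common to a library. Its counts therefore do not give the error rate of the calls reported here.

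Named genes are EHMT2 and EHMT1, the top 20 in each direction by size of change (called, groups not overlapping, higher mean at least 2 FPKM), the 10 most abundant called genes, and up to 4 called members of each gene list by p (the 2 with the smallest p where none was called), with all EHMT2 neighbours and cell markers. Further members of the lists are named to complete a group. The members and lists were chosen with earlier results of these data known. Identifiers were paired with symbols by the files, biotypes and transcript GC content came from GENCODE, and promoters came from RefSeq (GRCh38.p14), where MT1E, MT1F and MYL9 have no entry. Coordinates of genes are those of the files (hg19) and those of promoters are GRCh38.p14. Alternatives were pseudocount, filters, scaling, runs, fits, the replicate block and leaving out libraries.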

Additional observations from a re-analysis of the deposited data

Results flagged for a closer look

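The effect of the siRNA on EHMT2 differed from that of the inhibitor by -1.44 ± 0.13 on the log2(FPKM + 1) scale (SE, limma interaction term, adjusted p = 0.000776). It is listed here because the same contrast, treatment against its own control, gave different effects in the 2 arms. EHMT2 was lower in 2 of 2 siRNA libraries than in every other library. With 2 libraries per group, no library could be examined as an outlier of its group.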

How the results depend on the processing

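The change of EHMT2 and the difference of its siRNA and inhibitor effects kept direction and significance under every alternative that gave them. EHMT2 ranged from -1.85 to -1.51, and from -1.74 to -1.60 without single libraries. The difference ranged from -1.61 to -1.27, and from -1.51 to -1.37 without single libraries. The 4 siRNA and siRNA control libraries alone, and the fit without the inhibitor controls, hold no such difference.

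The 273 calls (103 higher, 170 lower) became 5 with no filter on low values (2 higher, 3 lower), 587 at a mean FPKM of at least 5 (259, 328), 22 with short loci kept (7, 15), 134 with FPKM as deposited (20, 114), 7 in the 4 libraries alone (2, 5), 31 with the first run alone (12, 19), 45 with the second run alone (12, 33) and 132 without the inhibitor control libraries (57, 75), the last chosen after seeing the data. Leaving out single siRNA or siRNA control libraries gave 8 to 424 calls (3 to 194 higher, 5 to 230 lower). The cause was not tested, beyond the fewer libraries or other gene sets by construction. A pseudocount of 0.1, quantile normalization and robust empirical Bayes gave 275, 275 and 313.

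With the replicate number as a block there were 68 calls (25 higher, 43 lower). Deviations of same-numbered siRNA and siRNA control libraries correlated across genes at r = 0.043. With 2 libraries per group and genes that are not independent, this value cannot decide whether the numbers pair the libraries.

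ITGA5 turned to -0.13 with the first run alone. COL1A1 ranged from -0.085 (without siRNA library 2) to 0.341 without single libraries, and was also below 0 without siRNA control library 2. Neither gene was called. RPPH1, SNHG3 and TMSB10, among the most abundant RNAs, had a change of 0 after quantile normalization, where the same ranks share a value. Limits are 2 libraries per group, controls whose treatment is not given, no counts, unknown strand use, and a shallow siRNA control library 2, in which low genes are least precise.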
